A study of Mus musculus with 20 samples.

Results

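Autosomal gene expression was compared between unstressed male and female mice in the BNST (bed nucleus of the stria terminalis), a forebrain nucleus that joins the amygdala to the hypothalamus. The comparison used the 5 libraries titled as male controls and the 5 titled as female controls, 10 of the 20 libraries in the series. Both groups carry the treatment label Control and were housed under specific pathogen-free conditions, and polyadenylated RNA from the BNST was sequenced from each. The other 10 libraries come from mice labelled Susceptible after chronic restraint stress, 5 of each sex, and served as a second comparison of the sexes that shares no library with the first. The labels give no strain, age or estrous stage, name no altered gene, and do not say whether a library is 1 animal or a pool. Since nothing in them states that each library is another animal, p-values measure only how far the libraries of a group spread, a spread that may be technical. Of 18455 autosomal genes in the files, 14322 had enough counts to be tested.

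The BNST is one of the brain regions in which males and females of rodents are known to differ in size, in cell number and in the expression of steroid receptors and peptides. Circulating testosterone acts there through the androgen receptor and, after conversion by aromatase, through estrogen receptors. Its tissue also holds blood vessels, astrocytes and myelinated axons, and it borders the striatum, the thalamus, the hypothalamus and the choroid plexus. In a dissected piece of tissue, a lower level of a gene can come from fewer cells of a type or from less RNA per cell, and these cannot be told apart.

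The Y-linked genes Uty, Kdm5d and Eif2s3y had 0 CPM (counts scaled to library size) in every female control and 18.4 to 24.4, 45.8 to 53.6 and 50.2 to 70.2 CPM in the male controls, as the labels require. Female control libraries held 15045809 to 17225841 counts and male control libraries 14758273 to 17862840. The GABA-synthesis genes Gad1 and Gad2, which mark the inhibitory neurons that dominate the BNST, stood at 457 to 839 CPM and 454 to 970 CPM in the 10 libraries. RNA of neighbouring structures was unequal between the groups. Pmch, which encodes a peptide of lateral hypothalamic neurons, was 118, 23.6 and 11.2 CPM in female controls 1, 2 and 3 and below 1 CPM in the other 7 controls. Ttr, a gene of the choroid plexus, was 1659 and 1952 CPM in female controls 2 and 3, 1723 CPM in male control 5 and at most 58.2 CPM in the other controls. Male control 5 also had almost no hemoglobin RNA, with a summed level of the blood markers of 0.957 CPM against 42.1 to 127 CPM in the other 9.

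Between male and female controls 68 autosomal genes passed an adjusted p of 0.05 in edgeR's quasi-likelihood test, which is 0.475% of those tested. Males had the higher level of 38 (0.265%) and the lower level of 30 (0.209%). Of the 38, 4 are members of the list of endothelium and pericyte markers (Pecam1, Slc2a1, Vwf and Ly6c1), 1 of the glucocorticoid list (Nfkbia) and 1 of the immediate early genes (Klf2). Of the 30, 2 are members of the myelin list (Gjc3 and Ermn) and 1 of the cholesterol synthesis list (Msmo1), and the pituitary hormone genes Prl and Gh are also among them. Most differences were small. The median log2 fold change (male over female) was 0.67 among the 38 and -0.44 among the 30, and 11 of the 68 were larger than 1 in size. The median size without regard to sign was 0.54 for the 68 and 0.15 over all autosomal genes, of which 290 of 14322 were larger than 1, a difference that follows from selecting genes by the test. At an unadjusted p under 0.05 there were 2759 autosomal genes, or 19.3%, against 716 at a rate of 5%. Adjustment over all 14884 tested genes includes the sex-linked ones, and 30 autosomal genes passed when it was made over autosomal genes alone (20 higher, 10 lower). Among genes named below, Vwf, Ly6c1, Icam1, Traf3ip2, Klf2, Eng and Adgrf5, all higher in males, did not pass then. Nor did Cav2, Ermn, Bcas1, Msmo1, Cxxc5, Car2, Selenok, Prl and Gh, all lower in males. The adjusted p-values given below are those over all tested genes. The count also moved with single libraries: it was 3, 8, 0 and 7 without female controls 1 to 4, 440 without female control 5, 180, 5, 19, 72 and 16 without male controls 1 to 5, while all 68 estimates kept their sign each time.

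**Figure D1:**
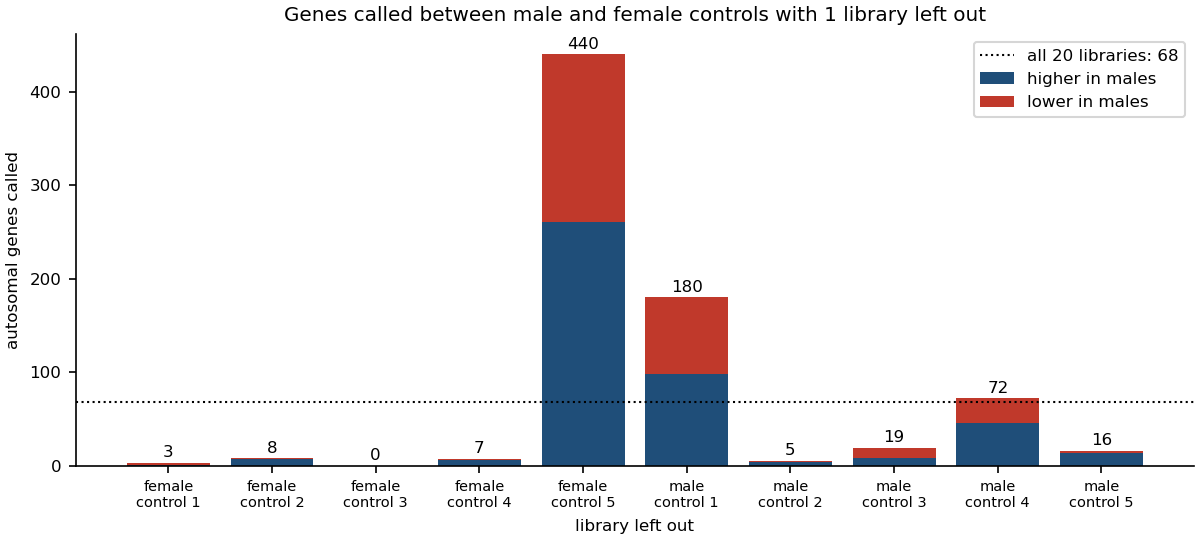
Number of autosomal genes called between male and female controls (y axis, adjusted p under 0.05) when 1 control library is left out (x axis), stacked by direction, with the 68 calls of the whole fit as a dotted line. Leaving out female control 3 ends every call, and leaving out female control 5 raises the count to 440.

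Ch25h, which encodes the enzyme that makes 25-hydroxycholesterol, had the largest positive difference. Its level was 0.113, 0.173, 0.0663, 0 and 0.123 CPM in female controls 1 to 5, and 4.52, 1.64, 1.41, 1.66 and 0.249 CPM in male controls 1 to 5. Every male control stood above every female control, although male control 5 was close to the females. The gene is rare in this tissue: these levels correspond to 0 to 3 counts per female library and 4 to 74 per male library, 8 against 155 counts in all. The log2 fold change was 4.18 ± 0.68 (SE; edgeR adjusted p = 0.0109; chromosome 19, 34473778 to 34475164 on GRCm38, minus strand). In susceptible mice, too, the groups were separate, with 1 or 2 counts in each female library and 6, 22, 7, 16 and 27 counts in the males (log2 fold change 3.24 ± 0.71, edgeR unadjusted p = 0.00021, adjusted p = 0.26).

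Nfkbia, Tnfaip3, Icam1 and Traf3ip2, which are known from NF-kB signalling, each passed with a higher level in male controls. They were picked from the called genes after their values were seen, and no list of NF-kB genes was examined. NF-kB is a family of transcription factors that inflammatory signals release from inhibitors in the cytoplasm, and among its targets are genes that shut it off again. Nfkbia, the gene of one such inhibitor, was 15.2, 15.6, 14.5, 15.8 and 15.5 CPM in female controls 1 to 5 and 27.5, 20.5, 22.6, 24.7 and 18.8 CPM in male controls 1 to 5. The female libraries lay close together and all below the males (log2 fold change 0.58 ± 0.10, edgeR adjusted p = 0.0162; chromosome 12, 55489410 to 55492647, minus strand). Tnfaip3 encodes A20, a ubiquitin-editing enzyme that restrains NF-kB signalling, and its level was 3.44 ± 0.93 CPM in females and 7.14 ± 0.97 CPM in males (SD, n = 5 each; log2 fold change 1.05 ± 0.21, edgeR adjusted p = 0.0354). Icam1, an adhesion molecule that endothelial cells show to white blood cells, was 1.59, 2.25, 2.19, 2.29 and 2.09 CPM in female controls 1 to 5. It was 5.98, 9.77, 3.02, 7.29 and 3.43 CPM in male controls 1 to 5, with no overlap (1.50 ± 0.32, edgeR adjusted p = 0.0459). Traf3ip2, an adaptor of the interleukin-17 receptor, was 1.58-fold higher (edgeR adjusted p = 0.0464). Tnfaip6, a hyaluronan-binding protein gene named for its induction by tumor necrosis factor, moved the opposite way, from 13.2 ± 1.25 CPM in females to 8.24 ± 1.40 CPM in males (log2 fold change -0.68 ± 0.13, edgeR adjusted p = 0.0319).

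Promoters of 3 of these genes, Nfkbia, Icam1 and Tnfaip3, hold a 9-letter core common to many NF-kB sites, GGANNTTCC. All 3 genes were higher in every male control than in any female control, and 2 of the promoters are shown. Windows ran from 250 bases before to 50 bases after each RefSeq start (GRCm38.p6) and both strands were searched. The 250 bases before the start are printed 5′ to 3′ on the gene's strand, with matches in capitals. For Nfkbia they are chr12:55492648-55492897 (minus strand), with matches that begin 178 and 29 bases before the start, and for Icam1 chr9:21015690-21015939 (plus strand), with 1 match that begins 153 bases before it.
Nfkbia: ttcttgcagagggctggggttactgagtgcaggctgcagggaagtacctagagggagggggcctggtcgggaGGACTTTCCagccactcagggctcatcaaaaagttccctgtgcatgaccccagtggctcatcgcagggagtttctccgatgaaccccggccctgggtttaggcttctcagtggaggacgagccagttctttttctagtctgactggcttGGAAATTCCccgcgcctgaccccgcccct
Icam1: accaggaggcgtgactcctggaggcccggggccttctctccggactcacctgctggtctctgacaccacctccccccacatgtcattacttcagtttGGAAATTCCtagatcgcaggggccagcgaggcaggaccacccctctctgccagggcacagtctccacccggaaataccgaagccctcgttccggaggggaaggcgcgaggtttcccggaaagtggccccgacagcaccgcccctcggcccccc
Tnfaip3 holds 1 match that begins 24 bases before one of its starts. A window was matched for 26 of the 38 genes that were higher in males, and 3 of these 26 (11.5%) held the core, as did 2 of 20 matched genes that were lower (Idh1 and Sec62) and 5.31% of 11149 tested autosomal genes. A match describes the letters only, and the motif was chosen after the values were seen. The ETS motif CCGGAAGT, a site of factors active in endothelium, was in 0 of the 26, 1 of the 20 (Selenok) and 8.16% of the tested genes.

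Of the 29 gene lists, that of endothelium and pericytes had the most called members. Of 24 tested markers of endothelium and pericytes 23 had a positive estimate, with a median log2 fold change of 0.36. Of the 24, 4 passed the test: Pecam1, Slc2a1, Vwf and Ly6c1. With adjustment over autosomal genes alone, Pecam1 and Slc2a1 passed, and Vwf and Ly6c1 did not. Slc2a1, the glucose transporter of the blood-brain barrier, was 77.4, 77.8, 68.7, 66.7 and 68.0 CPM in female controls 1 to 5 and 93.3, 95.4, 99.2, 95.8 and 97.2 CPM in male controls 1 to 5. The smallest gap between the groups was wider than the whole range within males (log2 fold change 0.42 ± 0.08, edgeR adjusted p = 0.0322; chromosome 4, 119108711 to 119137983, plus strand). Pecam1, the endothelial adhesion molecule CD31, was 12.6, 14.3, 13.6, 11.4 and 13.7 CPM in female controls 1 to 5. In male controls 1 to 5 it was 25.5, 25.7, 25.5, 16.5 and 27.1 CPM, so male control 4 stood nearer to the females than to the other males (0.87 ± 0.14, edgeR adjusted p = 0.0109; chromosome 11, 106654217 to 106750628, minus strand).

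Male control 4 departed in the same way in several other vessel genes. Vwf, the von Willebrand factor that endothelium secretes for clotting, was 11.1 to 16.7 CPM in female controls while male controls 2, 3, 4 and 5 had 31.5, 36.9, 13.5 and 38.7 CPM, so male control 4 lay inside the female range (1.13 ± 0.24, edgeR adjusted p = 0.0459). Ly6c1, a surface protein of brain endothelium, was 16.8 ± 1.15 CPM in females and 24.2 ± 2.56 CPM in males and did not overlap (0.52 ± 0.12, edgeR adjusted p = 0.0474). The summed level of the 24 markers was 504, 583, 538, 522 and 541 CPM in female controls 1 to 5 and 776, 806, 829, 522 and 760 CPM in male controls 1 to 5. Without male control 4 the 24 estimates were all positive, the median was 0.41 and 6 passed. Male control 5, which has almost no hemoglobin RNA, had a sum of 760 CPM. The list's median lay between 0.32 and 0.44 in the fits that changed the scaling, removed the trend on GC content and length, took the region score or a surrogate variable as a covariate, or left out 1 control or the libraries rich in Pmch or Ttr.

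**Figure D2:**
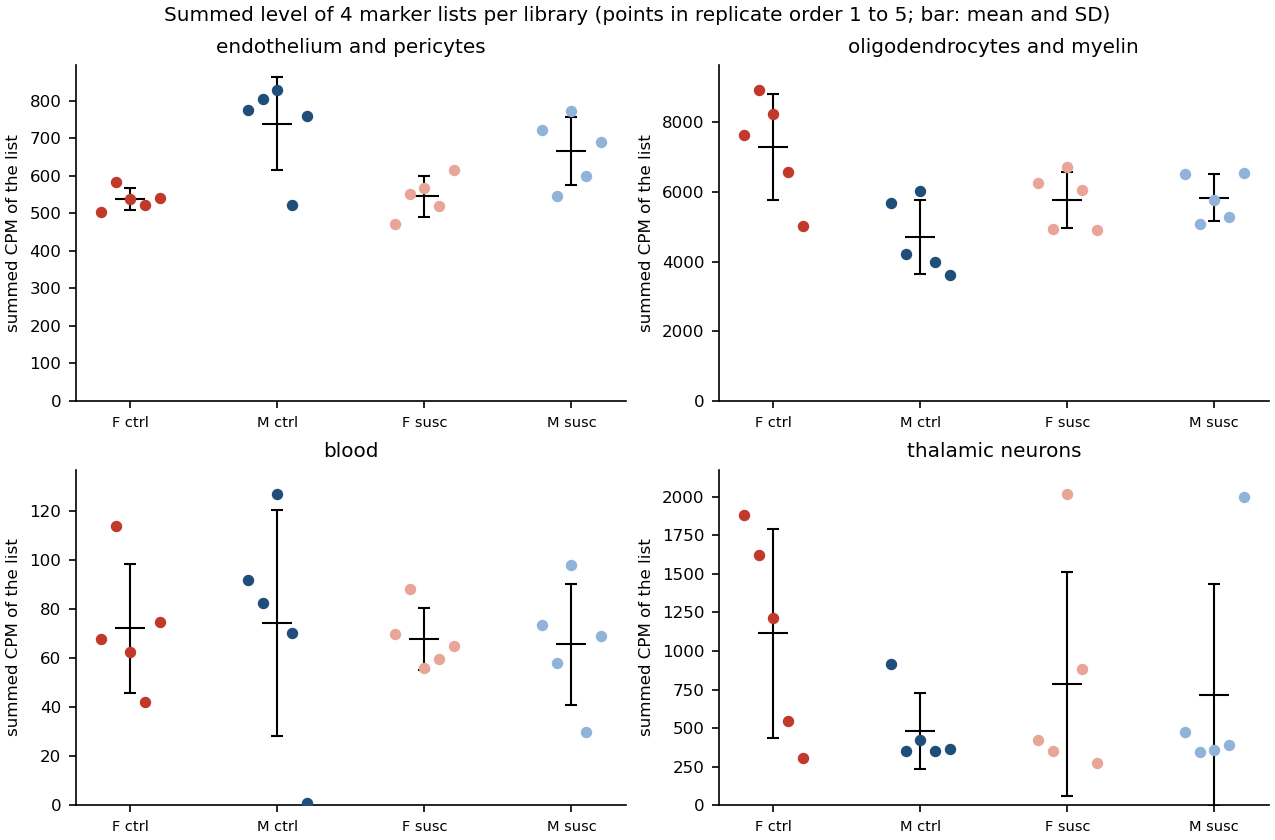
Summed level (CPM, y axis) of the markers of endothelium and pericytes, oligodendrocytes and myelin, blood, and thalamic neurons in each of the 20 libraries, by group (x axis; F and M, female and male; ctrl and susc, control and susceptible), with points in the order of replicates 1 to 5 and bars for mean and SD. Vessel markers stand at 504 to 583 CPM in female controls and at 760 to 829 CPM in 4 of 5 male controls, male control 4 being at 522 CPM.

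Other called genes known from endothelium, outside the list, were picked after their values were seen. They did not all go the same way. Cav2, a caveolin gene, was lower in males, at 26.5 ± 2.83 CPM in females and 18.3 ± 3.39 CPM in males (-0.54 ± 0.12, edgeR adjusted p = 0.0459), with overlap. Adgrl4, an adhesion receptor of sprouting vessels, was 12.3 ± 1.56 CPM in females and 24.3 ± 3.94 CPM in males (0.99 ± 0.16, edgeR adjusted p = 0.0109), without overlap. Robo4, Eng, Podxl and Adgrf5, all surface proteins of endothelial cells, were 1.74-fold, 1.74-fold, 1.79-fold and 1.84-fold higher in males. Klf2, a transcription factor that blood flow induces in endothelium, was 7.73 ± 1.93 CPM in females and 14.2 ± 4.07 CPM in males (0.88 ± 0.19, edgeR adjusted p = 0.0459), and the groups overlapped. Gata2, a transcription factor of blood and endothelial cells, was 2.04-fold higher and also overlapped. Fn1, the fibronectin of the matrix around vessels, was 24.2 to 38.5 CPM in female controls and 51.3 to 82.9 CPM in male controls (1.11 ± 0.21, edgeR adjusted p = 0.0288). Tgm2, a transglutaminase that crosslinks matrix proteins, was 1.66-fold higher and Tns2, a focal adhesion protein, 1.60-fold higher, both without overlap. Slc4a11, a membrane transporter, was 1.25, 2.88, 1.73, 2.86 and 3.94 CPM in female controls 1 to 5 and 5.13, 7.16, 8.26, 11.1 and 12.2 CPM in male controls 1 to 5 (1.79 ± 0.33, edgeR adjusted p = 0.024). Acer2, an alkaline ceramidase of the Golgi, was 1.85-fold higher and Mamstr, a coactivator of the muscle regulators MEF2, 2.26-fold higher, from 1.10 ± 0.10 to 2.49 ± 0.40 CPM. Markers of meninges and fibroblasts had 8 of 17 positive estimates and a median of -0.004, and none passed.

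**Figure D3:**
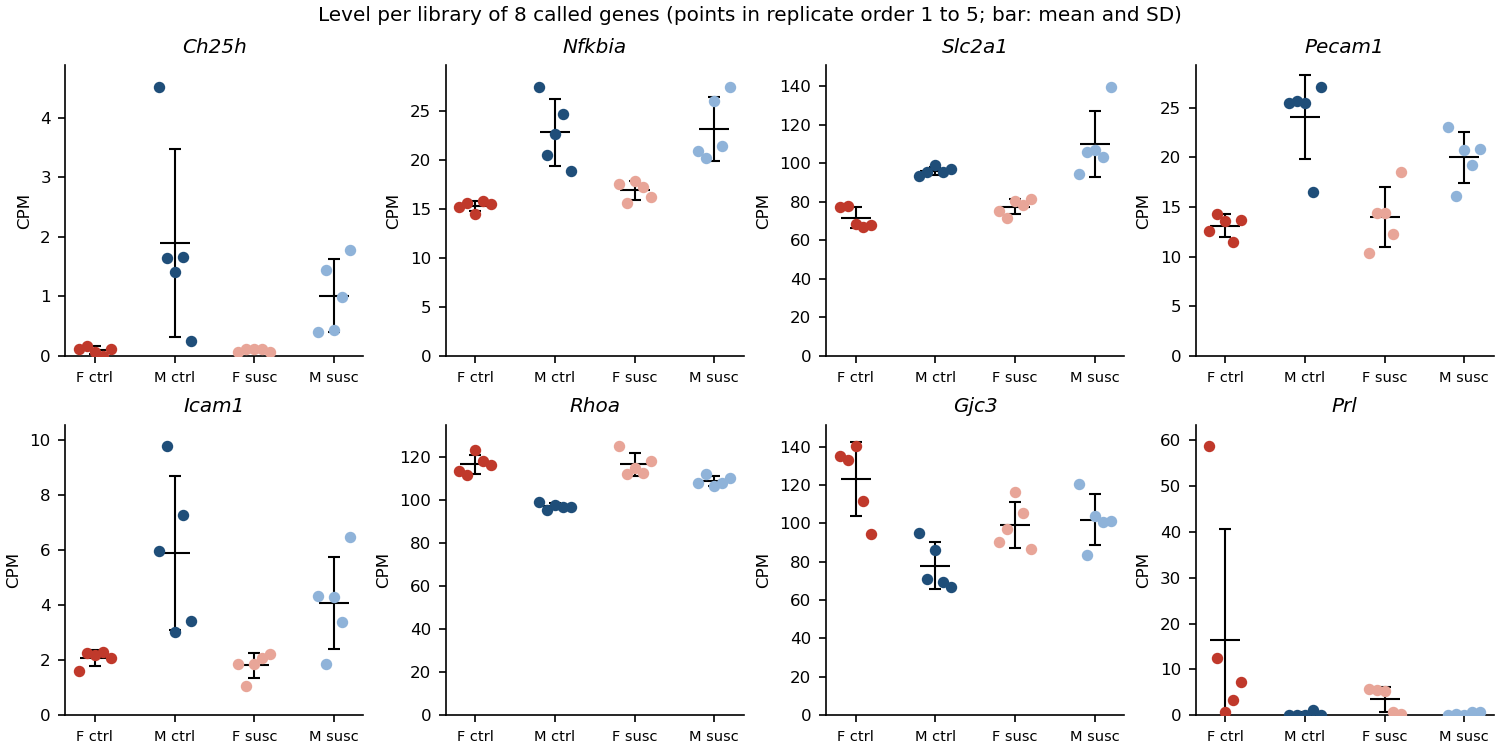
Level in CPM (y axis) of 8 called genes in the 4 groups of 5 libraries (x axis; F and M, female and male; ctrl and susc, control and susceptible), with points in the order of replicates 1 to 5 and bars for mean and SD. Ch25h, Nfkbia, Slc2a1, Pecam1 and Icam1 stand higher in every male control than in any female control, Rhoa lower, while Gjc3 and Prl overlap.

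Among genes lower in male controls, the 24 tested markers of oligodendrocytes and myelin all had negative estimates, with a median log2 fold change of -0.61, and 2 passed, Gjc3 and Ermn. Gjc3, a connexin of myelinating glia, was 135, 133, 140, 112 and 94.3 CPM in female controls 1 to 5 and 95.1, 71.2, 86.3, 69.6 and 67.0 CPM in male controls 1 to 5 (-0.66 ± 0.12, edgeR adjusted p = 0.0288). Only female control 5 reached into the male range. Ermn, a cytoskeletal protein of myelin, was 105 ± 19.4 CPM in females and 58.9 ± 16.2 CPM in males (-0.83 ± 0.18, edgeR adjusted p = 0.0464). Bcas1, a gene of young myelinating oligodendrocytes that was not on the list, was 1.73-fold lower in males (edgeR adjusted p = 0.0459). The summed myelin level was 7637, 8920, 8248, 6579 and 5034 CPM in female controls 1 to 5 and 5667, 4218, 6031, 4001 and 3605 CPM in male controls 1 to 5. It was highest in the 3 female controls with Pmch above 1 CPM. Without those 3 libraries, female susceptible 4 and male susceptible 5, all over 1 CPM of Pmch, the list's median was -0.31 and none of its members passed. Astrocyte markers had negative estimates in 19 of 20 (median -0.21, none passed) and cholesterol synthesis genes in 20 of 21 (median -0.24), of which the sterol oxidase gene Msmo1 passed (-0.44 ± 0.09, edgeR adjusted p = 0.0459). Without the libraries rich in Pmch these medians were -0.06 and -0.07. The part of the neighbouring tissue in these differences was not tested.

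The pituitary hormone genes Prl (prolactin) and Gh (growth hormone) had the largest negative estimates. Prl was 58.7, 12.6, 0.73, 3.24 and 7.20 CPM in female controls 1 to 5, listed at 0 in male controls 1, 2, 3 and 5, and 1.09 CPM in male control 4. Gh was 36.0, 4.44, 0.862, 1.21 and 4.37 CPM in female controls 1 to 5 and at most 0.918 CPM in male controls. Both are secreted by the pituitary gland, and female control 1 was the highest library for each. The counts summed to 1433 against 19 for Prl and 815 against 17 for Gh, with log2 fold changes of -6.12 ± 1.30 and -5.46 ± 1.16 (edgeR adjusted p = 0.0462 and 0.0459), and the groups overlapped for both. An alternative chosen after seeing the data left out every library with more than 1 CPM of either gene, 5 controls among them. It kept 1 female and 4 male controls and, of the susceptible females, only female susceptible 5. Each female group then had a single library and no spread of its own, so only effect sizes are given. All 68 genes kept their sign, with a median size of 0.65 against 0.54.

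Rhoa, a GTPase that controls actin, was 114, 112, 123, 118 and 117 CPM in female controls 1 to 5 and 99.1, 95.4, 98.1, 97.0 and 96.8 CPM in male controls 1 to 5. The groups were separate and tight, so a 1.20-fold difference passed (-0.26 ± 0.04, edgeR adjusted p = 0.0109; chromosome 9, 108306129 to 108337934, plus strand). Golga7, a Golgi protein that helps attach palmitate to Ras, and Sec62, a subunit of the endoplasmic reticulum translocon, had log2 fold changes of -0.34 ± 0.06 and -0.32 ± 0.06. Idh1, the cytosolic isocitrate dehydrogenase, and the carbonic anhydrase gene Car2 had log2 fold changes of -0.38 ± 0.07 and -0.56 ± 0.12. Meioc, a gene known from meiosis, was rare, with 23 to 32 counts in each female control and 9 to 16 in each male control (-1.03 ± 0.21, edgeR adjusted p = 0.0403). Cxxc5, a zinc finger protein of Wnt signalling, was 65.3 ± 10.4 CPM in females and 42.2 ± 6.35 CPM in males (-0.63 ± 0.13, edgeR adjusted p = 0.0459). The transcripts that were higher in males had a median GC content of 53.4% and a median exon length of 5350 bases, and those lower in males 45.0% and 4059 bases, against 50.1% and 4476 bases over all autosomal genes. With offsets that remove the trend on both, 61 genes passed, 44 of them among the 68.

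No marker of striatal, thalamic or hypothalamic neurons passed, although most estimates within a list shared a sign. All 25 striatal markers had positive estimates (median 0.87), with Rarb, a retinoic acid receptor of striatal neurons, at 1.19 ± 0.46. All 14 thalamic markers had negative estimates (median -1.36), with the glutamate transporter gene Slc17a6 at 454, 346, 261, 112 and 19.6 CPM in female controls 1 to 5 and 173, 22.7, 46.7, 17.0 and 31.2 CPM in male controls 1 to 5. Of 18 hypothalamic markers 17 had negative estimates (median -1.72), and the orexin gene Hcrt was 82.5, 28.7 and 4.91 CPM in female controls 1 to 3 and below 1 CPM in the other 7 libraries. The 3 highest Slc17a6 values were those of female controls 1 to 3, followed by male control 1. The summed thalamic level was 304 to 1884 CPM in females and 350 to 916 CPM in males, and the summed hypothalamic level 15.3 to 580 and 14.1 to 314 CPM, so the groups overlapped in both. Without the libraries over 1 CPM of Pmch the medians were 0.35 for striatal, 0.32 for thalamic and 0.02 for hypothalamic markers, so that the thalamic and hypothalamic medians turned their sign. Markers of choroid plexus and ependyma had a median of -0.99, which was 1.08 without those libraries. Microglia (median -0.07) and excitatory neurons of cortex and hippocampus (median -0.05) had no called member.

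Steroid and peptide systems for which the BNST is known gave no call. Of 31 tested genes of sex steroid signalling 15 had positive and 16 negative estimates (median -0.04). Of the 31, 9 had an unadjusted edgeR p under 0.05, against 2759 of 14322 autosomal genes (19.3%). Esr1, the estrogen receptor alpha, was 13.3, 7.90, 8.82, 12.1 and 6.40 CPM in female controls 1 to 5 and 11.2, 2.91, 4.64, 4.19 and 3.99 CPM in male controls 1 to 5 (-0.85 ± 0.46, edgeR adjusted p = 0.311). Male control 1 alone among the males lay within the female range. Cyp19a1, the aromatase gene, stayed at or below 1.40 CPM in all 10 libraries (-0.12 ± 0.57). The progesterone receptor gene Pgr was 24.6 to 30.5 CPM in females and 23.4 to 33.9 CPM in males (0.03 ± 0.11). Hsd17b12, a steroid dehydrogenase (-0.44 ± 0.11, edgeR adjusted p = 0.0654), Srd5a1, a 5-alpha reductase that activates testosterone (-0.54 ± 0.15, 0.0949), and Gper1, a membrane estrogen receptor (0.69 ± 0.19, 0.0853), came nearest to the threshold. Of 19 genes known as sexually dimorphic in the forebrain 8 had positive estimates, and none passed. Their smallest p-values were those of the tachykinin gene Tac1 (1.08 ± 0.43), the calcium buffer gene Calb1 (-0.47 ± 0.21) and Esr1. Greb1, a gene known for induction through the estrogen receptor, was 1.11 to 2.99 CPM in female controls and 1.09 to 9.09 CPM in male controls (0.66 ± 0.51).

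None of the 35 steroid, stress and peptide genes set to be examined whatever their result passed, and not all of their values are given here. Among peptide precursors, Penk (0.85 ± 0.46), Pdyn (0.95 ± 0.43), Nts (0.46 ± 0.39), Cartpt (0.39 ± 0.45), Npy (0.25 ± 0.28) and Crh (0.25 ± 0.28) had positive estimates. Penk, the enkephalin precursor, was 51.1 CPM in female control 1 and 273 to 571 CPM in the other females, against 470 to 839 CPM in males. Vasopressin (Avp, -1.94 ± 1.56) and oxytocin (Oxt, -1.55 ± 1.45), both peptides of hypothalamic neurons, had negative estimates with standard errors close to their size. Adcyap1, the PACAP precursor, was also negative (-1.61 ± 0.63, edgeR unadjusted p = 0.0201, adjusted p = 0.193), as was the galanin gene Gal (-0.44 ± 0.85). Adcyap1 was 7.45 to 50.8 CPM in females, highest in female control 1, and 3.04 to 17.1 CPM in males. Avp was 69.1 CPM in male control 1, at most 1.61 CPM in the other males, and 2.40 to 97.7 CPM in females. For Crh, the corticotropin-releasing hormone gene, the levels were 4.43 to 9.54 CPM in females and 4.98 to 9.29 CPM in males. The receptors Crhr1 (-0.18 ± 0.13), Crhr2 (-0.24 ± 0.32), Oxtr (-0.22 ± 0.19), Avpr1a (-0.29 ± 0.43) and Adcyap1r1 (-0.03 ± 0.10) stayed within 1.5 standard errors of 0. Estimates for other receptors were -1.02 ± 0.58 (Prlr), -0.41 ± 0.54 (Cckar), -0.20 ± 0.50 (Esr2) and 0.35 ± 0.20 (Nr3c2). Crhbp (-0.17 ± 0.34), Moxd1 (0.09 ± 0.28) and Ecel1 (0.11 ± 0.27) lay near 0.

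Genes that respond to glucocorticoids had positive estimates in 17 of 21 (median 0.35), with Nfkbia as the called member. Fkbp5, a chaperone of the glucocorticoid receptor that the receptor itself induces, was 28.1 to 36.1 CPM in female controls and 39.5, 45.4, 42.1, 67.5 and 132 CPM in male controls 1 to 5. The groups did not overlap, but male control 5 stood far above the rest, and the test was not passed (1.01 ± 0.28, edgeR adjusted p = 0.0908). Sgk1, a kinase induced by the same receptor, was 77.7 to 106 CPM in females and 106 to 164 CPM in males (0.46 ± 0.13, edgeR adjusted p = 0.106), with a narrow overlap. The receptor gene Nr3c1 itself had an estimate of -0.21 ± 0.09 (edgeR adjusted p = 0.223). Immediate early genes, which neuronal activity induces, had positive estimates in 27 of 34 (median 0.35), with Klf2 called. The count was 18 of 34 (median 0.04) without the libraries rich in Pmch, and 5 of 34 (median -0.39) in susceptible mice. Of 19 clock genes 13 had positive estimates (median 0.15), with Per3 (0.43 ± 0.11, edgeR adjusted p = 0.0654) and Ciart (0.55 ± 0.14, 0.0681) nearest to the threshold. In susceptible mice 5 of the 19 clock genes had positive estimates (median -0.16). Interferon and antigen presentation genes had positive estimates in 20 of 24 (median 0.25), and none passed.

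**Figure D4:**
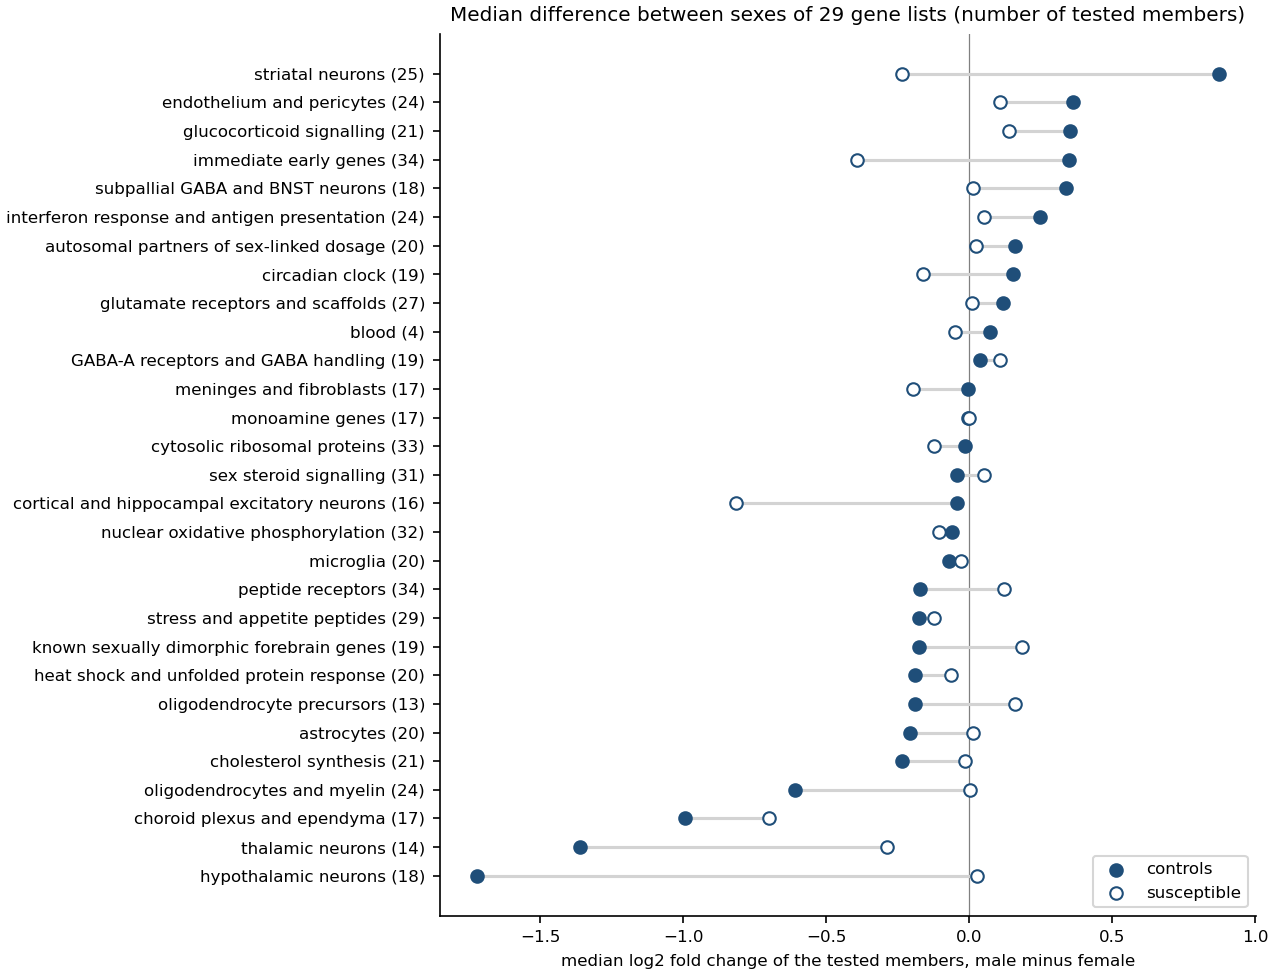
Median log2 fold change, male minus female (x axis), of the tested members of 29 gene lists (y axis, number of members in parentheses) in controls (filled) and in susceptible mice (open), joined by a line. Vessel markers lie to the right of 0 in both comparisons, with a median of 0.36 in controls and 0.11 in susceptible mice. Myelin, striatal and hypothalamic markers lie away from 0 in controls and nearer to it, or on its other side, in susceptible mice. Immediate early and clock genes lie to the right of 0 in controls and to the left of it in susceptible mice.

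In susceptible mice 1 autosomal gene, Slc2a1, passed (0.00698%), and 886 had an unadjusted p under 0.05 (6.19%). Slc2a1 was 71.8 to 81.3 CPM in the 5 females and 94.4 to 140 CPM in the 5 males (log2 fold change 0.51 ± 0.08, edgeR adjusted p = 0.0105). Of the 68 genes called in controls 57 (83.8%) had the same sign in susceptible mice, 34 of the 38 higher and 23 of the 30 lower, against 55.4% of all autosomal genes. The same sign together with an unadjusted p under 0.05 was found for 22 of the 68 (32.4%) and for 4.42% of all autosomal genes. Among the 22 were 16 of the 38 higher in males, among them Ch25h, Nfkbia, Icam1, Slc2a1, Pecam1, Ly6c1, Adgrl4, Adgrf5, Robo4, Podxl, Tgm2, Fn1, Tns2, Acer2 and Atg2a. Tnfaip3 (0.23, edgeR unadjusted p = 0.293), Traf3ip2 (0.17, 0.263), Eng (0.21, 0.243), Klf2 (0.22, 0.249) and Gata2 (0.07, 0.735) were not among them. Icam1 was 1.06 to 2.24 CPM in susceptible females and 1.84 to 6.46 CPM in susceptible males (1.16 ± 0.33, edgeR unadjusted p = 0.00203). Pecam1, at 0.52 ± 0.14, and Nfkbia, at 0.46 ± 0.10, kept their direction (edgeR unadjusted p = 0.00191 and 0.000192, adjusted p = 0.69 and 0.26). The susceptible groups did not overlap in the same direction for 3 of the 68 (4.41%), Ch25h, Nfkbia and Slc2a1, against 0.468% of all autosomal genes.

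Other called genes showed little difference in susceptible mice. Vwf was 15.1 ± 4.23 CPM in susceptible females and 15.9 ± 3.53 CPM in susceptible males (0.08 ± 0.24). Gjc3, Ermn and Bcas1 had estimates of 0.04 ± 0.12, -0.01 ± 0.18 and 0.01 ± 0.17, and the 24 myelin markers split into 12 positive and 12 negative. Mamstr (0.05 ± 0.23) and Meioc (-0.04 ± 0.21) were likewise near 0. The 24 markers of endothelium and pericytes had 16 positive and 8 negative estimates (median 0.11), against 23 and 1 in controls (median 0.36). Over all autosomal genes 44.4% of estimates were positive in susceptible mice and 49.8% in controls. At an unadjusted edgeR p under 0.05, 8 of the 24 were higher in susceptible males and 0 lower. The shares over all autosomal genes were 3.22% and 2.97%. The median log2 fold change of the 38 genes was 0.21 in susceptible mice and that of the 30 was -0.09. Since the genes were called on the control values, their estimates in controls are large by choice. The difference between the sex contrasts of control and susceptible mice was tested for every gene. It passed for 0 genes in edgeR (0%; smallest adjusted p = 0.587), in DESeq2 and in limma voom, with 1185 autosomal genes at an unadjusted p under 0.05 in edgeR (8.27%). A gene that passed in controls and not in susceptible mice is therefore not shown to differ between them.

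**Figure D5:**
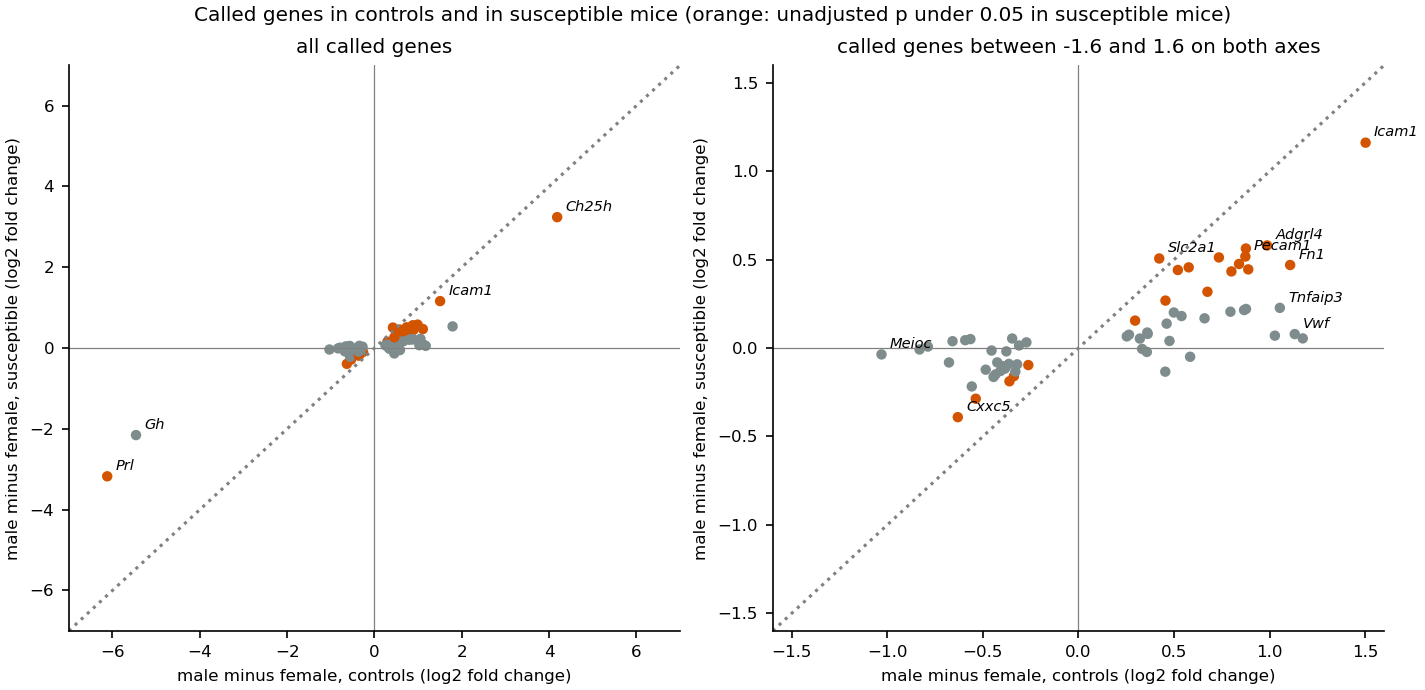
Log2 fold change, male minus female, of the 68 genes called in controls, in controls (x axis) and in susceptible mice (y axis), over the whole range (left) and between -1.6 and 1.6 (right). The dotted line marks equal values and orange marks an unadjusted p under 0.05 in susceptible mice. Of the 68 points 57 lie in the quadrants of equal sign, and most lie nearer to 0 in susceptible mice.

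The calls were scattered over the autosomes. Chromosome 6 had 7 of 723 tested genes called (0.968%) and chromosome 2 had 10 of 1189 (0.841%), the highest count, while chromosome 7 had 1 of 1136. Groups that did not overlap were found for 33 of the 38 genes higher and 18 of the 30 lower in males, against 2.37% and 1.53% of all autosomal genes, a measure from the same values that called them. Across the 14322 genes the log2 fold changes of control and susceptible mice had a Pearson r of 0.265 and a Spearman rho of 0.146, which describe genes measured in common libraries and not independent replicates. With the region score (the mean log2 level of striatal minus thalamic markers) as a covariate 9 genes passed. Of the 68, they included Ch25h, Slc2a1, Nfkbia, Tns2, Rhoa, Pecam1, Slc4a11 and Adgrl4, and the first 6 of these also passed with 1 surrogate variable. Without the libraries over 1 CPM of Pmch, which left 2 female and 5 male controls, Slc2a1 was the call that remained, and without those over 100 CPM of Ttr, which left 3 female and 4 male controls, none passed. All 68 estimates kept their sign in both fits, with a median size of 0.43 and 0.45.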

How the data were processed

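Polyadenylated RNA from the BNST was sequenced in 20 libraries. The authors deposited raw read counts per gene, 1 table per library. The submitters' processing notes name HISAT2, featureCounts and the mm10 build. Versions, annotation and strand setting are not given in the sources used, so reads of overlapping, antisense or near-identical genes cannot be separated. Groups and replicate numbers came from the titles. Genes were matched by identifier to GENCODE M21 on GRCm38.

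Counts of all 20 libraries were filtered (filterByExpr), scaled by TMM and fitted by edgeR 4.0.16 (R 4.3.3; robust quasi-likelihood test, 1 mean per group). CPM are TMM-scaled, except that list sums and the levels of Ttr, Uty, Kdm5d and Eif2s3y are scaled to library size. P-values were adjusted by Benjamini and Hochberg over the 14884 tested genes, with a threshold of 0.05. Standard errors are the size of the log2 fold change divided by the root of the F statistic. The code was tested on simulated data. Total counts of 14758273 to 17862840 per control library set the precision, and none of the 20 pairs of libraries within the control groups agreed within sampling noise.

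The genes compared and the 29 gene lists were chosen with earlier results of these data known. Genes were named by rule: the 10 largest called changes in each direction (mean of at least 1 CPM over the controls, sign held without each library in turn, no predicted models), up to 4 called members of each list, up to 3 members with the smallest p of lists without calls, and 35 genes whatever their result. Not every gene named by rule has its values printed above. Other called genes named (Ch25h, Rhoa, Robo4 and the like), and values given for a marker of a region, were chosen after their values were seen. Alternatives were DESeq2 1.42.0, limma 3.58.1 voom with quality weights, other size factors and filters, a fit of the compared groups or of autosomal genes alone, the replicate number as a block, covariates (region score, sva 3.50.0), GC and length offsets (mgcv 1.9.3), and leaving out libraries.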

Additional observations from a re-analysis of the deposited data

Results flagged for a closer look

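Dixon's test was applied to 125 named genes in each of the 2 control groups, 250 sets of 5 libraries. In 33 of them 1 library stood far from the other 4, where chance, at about 1 set in 20, would give 12.5; sets of the same libraries are not independent. Male control 1 was high for Avp (69.1 CPM), Oxt (114), Gal (15.1), Esr1 (11.2), Foxb1 (1.59), Gbx2 (6.59), Slc17a6 (173), Tcf7l2 (79.6), Ntsr1 (9.15) and Msmo1 (79.1) and low for Ezh2 (7.93). Male control 5 was high for Ciart (25.9 CPM) and Sostdc1 (10.6) and low for Chga (133), Ecel1 (68.4), Gja1 (185) and P2ry12 (10.7). Male control 4 was high for Gh (0.918 CPM) and Prl (1.09), whose levels were nearly 0 in the other males, and low for Pecam1 (16.5). Male control 2 was high for H2-D1 (58.9 CPM). Female control 1 was high for Pmch (118 CPM), Gh (36.0), Prl (58.7), Foxb1 (11.2) and Slc18a2 (36.3) and low for Icam1 (1.59). Female control 5 was high for Gper1 (2.71 CPM), Grik3 (144) and Kdm5b (98.9) and low for Greb1 (1.11). Female control 2 was high for Hba-a2 (6.11 CPM), and female control 4 for Meioc (2.03). Among these genes Gh, Prl, Icam1, Pecam1, Msmo1 and Meioc were called between the control groups.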

How the results depend on the processing

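The 68 calls in controls were 67 with DESeq2 size factors, 68 with a filter of 1 CPM in 5 libraries and 61 with GC and length offsets. They were 423 with DESeq2, 3217 with limma voom, 30 without a filter, 14 with the compared groups alone, 26 with autosomal genes alone in the fit and 30 with adjustment over autosomal genes. They were 1 without libraries over 1 CPM of Pmch, 0 without those over 100 CPM of Ttr, 9 with the region score and 7 with 1 surrogate variable. Leaving out 1 control gave 0 to 440 calls. The single call in susceptible mice was 6 with DESeq2, 2 with limma voom, 0 with the compared groups alone, with autosomal genes alone in the fit and with adjustment over them, 6 without Pmch-rich libraries, 0 without Ttr-rich libraries, 3 with the region score, 3 with 1 surrogate variable and 0 to 13 without 1 library. The cause of these shifts was not tested. The difference between the contrasts gave 0 calls in each of these settings that was run. The replicate number as a block gave 98 calls in controls, 52 of them shared, and 0 in susceptible mice. Same-numbered controls correlated at 0.501, -0.126, -0.0687, 0.184 and 0.021, and 2 of 5 pairs correlated best with their own number, so the numbers were not taken as pairs. The 25 called genes named by rule kept their sign in all 25 settings. Those settings reuse libraries on which the genes were called. For the largest changes, the rule already required that the sign hold without each control. The result was thus largely set in advance. Of the 100 named genes that were not called, which met no such rule, 31 changed sign in at least 1 setting. Depth limits rare genes such as Ch25h most.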
